A study of Mus musculus with 6 samples.

Results

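A set of 10 genes of the ubiquitin system, listed as erythroid ubiquitin enzymes and CTLH subunits, was followed through the induced differentiation of MEL cells. They were the E2 enzymes Ube2o, Ube2h and Ube2l6, the TRIM genes Trim58 and Trim10, and Maea, Rmnd5a, Wdr26, Gid8 and Ranbp10, which encode subunits of the CTLH ligase. The members were named by symbol, and each was represented by its RefSeq transcript with the highest mean read count. All 10 were found among the 23896 genes with a symbol, and all 10 were among the 12381 genes with enough reads to be tested. MEL cells are an established mouse erythroleukemia line arrested early in the erythroid lineage, and DMSO at 2% was added to growing suspension cultures to release them into terminal differentiation. mRNA-seq libraries, 2 described as biological replicates on each day, came from cells before DMSO (day 0) and after 2 and 4 days in it (day 2 and day 4). No culture kept for 2 or 4 days without DMSO was analysed here, so time in culture and DMSO cannot be told apart, and a single transformed line stands for the lineage. All groups share that line, medium and serum.

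Ubiquitin is activated by an E1 enzyme, handed to an E2 conjugating enzyme and passed to a substrate with the help of an E3 ligase, and a chain of ubiquitin can send the substrate to the proteasome. Maturing erythroblasts use this system to remodel their proteome as they fill with hemoglobin and discard organelles. CTLH is a large multi-subunit E3 ligase, named after a domain that several of its subunits share, in which the RING proteins MAEA and RMND5A or RMND5B form the catalytic core and UBE2H is the partner E2.

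The counts on transcripts summed to between 35294930 and 53899476 per library, and a read may have been counted for more than 1 transcript of a gene. Levels are given as CPM, reads relative to the size of their library after TMM scaling, with the mean and SD over 2 libraries, and in CPM per kb of transcript where genes are compared with each other. CPM is a share of each library, and rises and falls below are changes of that share. Changes in the number of cells that hold a transcript, in its amount per cell and in total mRNA per cell cannot be told apart. Changes are log2 fold changes with the standard error (SE) of an edgeR quasi-likelihood fit over all 6 libraries, and a gene was called at an adjusted p below 0.05 (Benjamini-Hochberg over all transcripts tested). Whether the replicates were separate cultures is not stated in the sources used here, so the p-values measure the spread between these libraries, which may be technical. The summed level of 9 erythroid markers in the files, among them the globin, heme synthesis and membrane genes Hba-a1, Hbb-bs, Alas2 and Slc4a1, was 936 to 995 CPM on day 0, 4112 to 4896 CPM on day 2 and 17362 to 19417 CPM on day 4. Of these 9 markers, 8 were higher and 1, Klf1, was lower on day 4 than on day 0. The summed level of 6 myeloid markers was 101 to 122 CPM on day 0 and 7.45 to 12.5 CPM on day 4, of which Spi1 made up nearly all (110 ± 14.8 and 8.74 ± 2.96 CPM) and was the 1 marker of 4 tested that was lower on day 4. All 3 tested of 4 mast cell markers were lower, with a sum of 6.15 to 6.81 CPM on day 0 and at most 0.0277 CPM on day 4. The 4 megakaryocyte markers summed to 268 to 271 CPM on day 0 and 543 to 617 CPM on day 4, with 2 higher and 2 lower: Itga2b rose from 218 ± 13.0 to 569 ± 53.3 CPM and Pf4 fell from 57.4 and 42.6 CPM in the day 0 libraries to 10.2 and 8.93 CPM on day 4. Ms4a2 of the mast cell and Ppbp of the megakaryocyte list had 0 reads in both day 4 libraries. The 4 lymphoid markers summed to at most 0.172 CPM in any library. The part of these other lineages' markers in the results below was not tested.

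Between day 0 and day 4 all 10 genes changed, 9 of them upward and Maea downward. Of all tested genes, 71.8% were called in this comparison, 35.5% as higher and 36.4% as lower. The 10 genes had a median change of 1.41 on the log2 scale, beside -0.02 over all tested genes. From day 0 to day 2, 7 of the 10 were higher and 1 was lower, where 62.5% of all tested genes were called, 31.0% higher and 31.5% lower. Between day 2 and day 4, 6 of the 10 were higher and none was lower, where 30.3% of all genes were called, 14.0% higher and 16.2% lower. Ube2h, Ube2l6, Trim10, Wdr26 and Ranbp10 were higher at both steps, which holds for 5 of the 10 genes and for 8.33% of all tested genes. This count was 2 (Ube2h and Ranbp10) without day 2 replicate 1, and 4, without Wdr26, when any other day 2 or day 4 library was left out or total counts alone were used. The medians at the 2 steps were 0.90 and 0.48 on the log2 scale, against 0.01 and -0.00 over all genes. When libraries were scaled by total counts alone, 63.4% rather than 49.6% of all calls were higher on day 2 than on day 0, and 32.7% rather than 46.4% on day 4 than on day 2, while of the members 8 were higher and 1 lower at the first step and 5 were higher at the second. Every one of the 10 calls for day 4 against day 0 remained in each alternative analysis without a size limit, including those that left out a library.

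**Figure D1:**
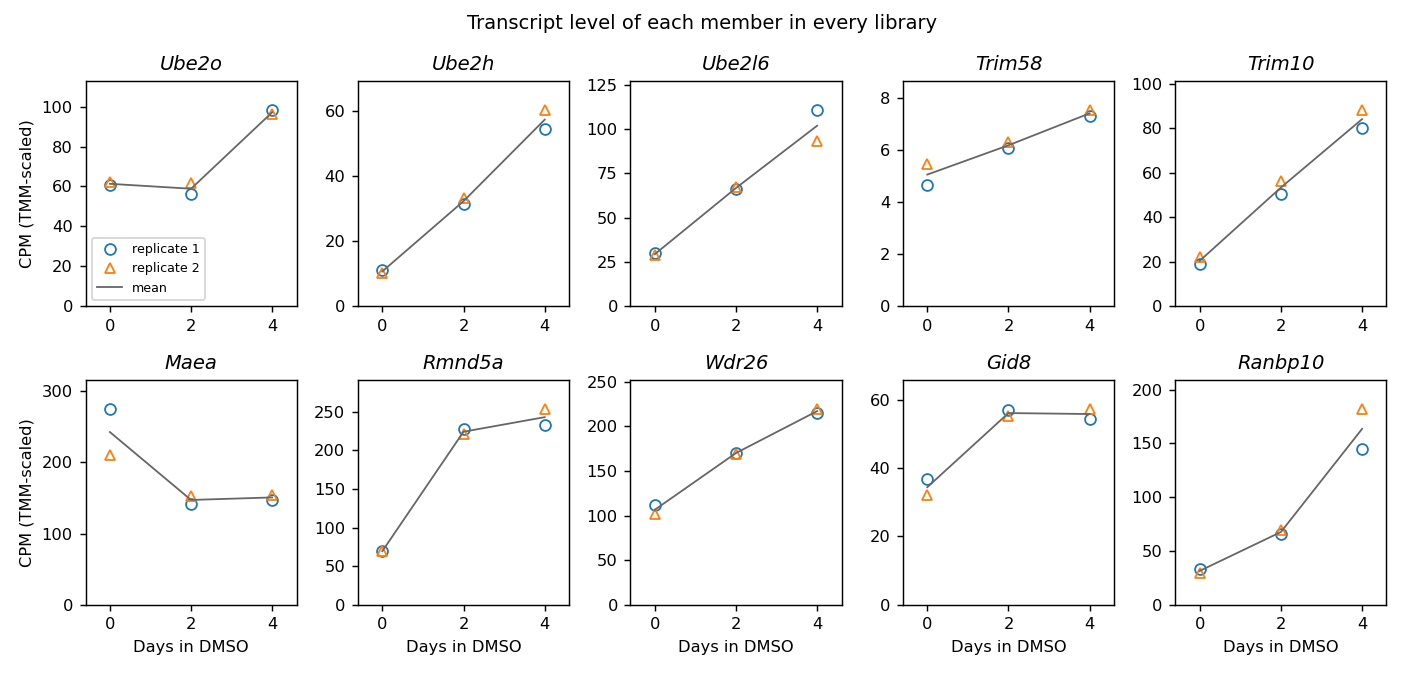
Level of each of the 10 genes (vertical axes, TMM-scaled CPM, each from 0) against days in DMSO (horizontal axes), with 1 symbol per library and a line through the means of 2 libraries. Ube2o stayed near 60 CPM until day 2 and stood above 96 CPM on day 4, Rmnd5a and Gid8 had most of their rise by day 2, Ranbp10 had the largest change of the 10 after day 2 (1.27 on the log2 scale), and Maea alone fell.

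The stretches before the start sites of 4 of these genes are shown because the genes ended far apart, with Trim10, Ube2h and Rmnd5a among the larger rises and Trim58 the smallest. RefSeq promoter windows (GRCm38.p6, 250 bases before to 50 bases after a start) were at hand for 7 of the 10 genes, in 10 windows, and not for Ube2o, Maea and Ranbp10. Each line gives the bases upstream of the start, 5′ to 3′ on the strand of the gene. It ends before any annotated exon and, except for Ube2h, whose stretch lies within the gene, before the gene span. Capitals mark matches on either strand to AGATAA or TGATAA, 2 of the forms bound by GATA factors, or to CCNCNCCC, the letters bound by KLF and SP factors. A base may belong to more than 1 match. Forms that end in G, such as the AGATAG near the beginning of the Trim58 stretch, were not searched.
Trim10, chr17:36869324-36869495, plus strand: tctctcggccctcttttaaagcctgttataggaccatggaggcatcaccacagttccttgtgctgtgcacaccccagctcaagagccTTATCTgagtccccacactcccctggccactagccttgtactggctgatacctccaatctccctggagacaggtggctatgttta
Trim58, chr11:58640215-58640464, plus strand: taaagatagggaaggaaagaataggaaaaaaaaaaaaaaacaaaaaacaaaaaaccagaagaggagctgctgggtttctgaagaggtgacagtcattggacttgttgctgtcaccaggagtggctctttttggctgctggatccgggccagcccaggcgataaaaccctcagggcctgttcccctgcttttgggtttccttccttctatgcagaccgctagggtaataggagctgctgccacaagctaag
Ube2h, a start within the gene, chr6:30243804-30244053, minus strand: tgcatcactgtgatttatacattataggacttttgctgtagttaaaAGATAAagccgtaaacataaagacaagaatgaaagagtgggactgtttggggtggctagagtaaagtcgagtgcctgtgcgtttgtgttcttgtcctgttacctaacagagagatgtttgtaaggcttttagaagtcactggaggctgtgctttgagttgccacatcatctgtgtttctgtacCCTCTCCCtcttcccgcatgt
Rmnd5a, chr6:71440638-71440887, minus strand: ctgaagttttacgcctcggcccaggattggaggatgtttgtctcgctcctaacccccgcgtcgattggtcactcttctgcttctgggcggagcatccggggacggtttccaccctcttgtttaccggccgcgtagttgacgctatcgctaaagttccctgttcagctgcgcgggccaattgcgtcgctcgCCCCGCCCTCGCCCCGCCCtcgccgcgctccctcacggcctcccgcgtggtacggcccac
The Trim10 window held 1 GATA match, 163 bases before the start used for the window, and no CCNCNCCC match. That start lies 78 bases inside the gene span, so the match is nearer to the first base of the span. Of the 2 windows of Ube2h, the one shown, at a start within the gene, held 1 GATA match 204 bases before the start and 1 CCNCNCCC match 21 bases before it. The other, at the start of the transcript that was counted, held 0 GATA and 5 CCNCNCCC matches and is not shown because annotated exons cover its upstream end. The Rmnd5a window held 3 overlapping CCNCNCCC matches, the farthest beginning 60 bases before the start. The Trim58 window held no match to the forms searched. Over the 10 windows, 3 had a GATA match and 8 had a CCNCNCCC match, where 18.6% and 49.5% of all 32851 windows of the table did. The 10 windows are not independent, since Gid8 gave 3 of them, 2 of which overlap, and Ube2h gave 2. By gene, the GATA matches lay in Ube2h, Trim10 and Gid8. The CCNCNCCC matches lay in Ube2h, Ube2l6, Rmnd5a, Wdr26 and Gid8. A match of letters is a description of these windows and was not tested for binding.

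Of the E2 enzymes, Ube2h rose most, Ube2l6 rose at both steps, and Ube2o rose only after day 2. Ube2h (NM_009459, chr6:30211289-30304539, minus strand of GRCm38, as for all positions here) encodes the E2 that works with CTLH, and is the only one of the 10 genes with several transcripts in the files (3, with nearly the same counts). Its level was 11.0 and 10.4 CPM in the day 0 libraries, 31.4 and 33.2 CPM on day 2 and 54.5 and 60.3 CPM on day 4. No library of one day overlapped with those of another. With 2 libraries per day such a gap is weak evidence, and its share over all tested genes is not given here. The change was 1.60 ± 0.12 (log2, SE) from day 0 to day 2 (edgeR adjusted p = 1.5e-06), 0.83 ± 0.11 from day 2 to day 4 (adjusted p = 0.00064) and 2.43 ± 0.12 over both (adjusted p = 4.6e-08), a 5.37-fold rise that lay above 96.6% of all tested genes. Of the 32-base words of this transcript, 10.1% also occur in the gene model Gm2058, so a small part of its reads could have been shared.

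Ube2l6 (NM_019949, chr2:84798828-84810003, plus strand) encodes the E2 that conjugates the ubiquitin-like protein ISG15. It was at 30.0 and 28.7 CPM on day 0, 66.0 and 67.5 CPM on day 2 and 111 and 93.3 CPM on day 4. The days did not overlap, and the day 4 libraries were the most spread, at 102 ± 12.2 CPM. The first step was 1.19 ± 0.11 (adjusted p = 7.4e-06) and the second 0.61 ± 0.11 (adjusted p = 0.00264, and 0.0569 without day 2 replicate 1), giving a 3.47-fold rise by day 4 (adjusted p = 2.2e-07). The gene 2700054A10Rik shares 6.21% of its 32-base words.

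Ube2o (NM_173755, chr11:116537740-116581503, minus strand) encodes a large enzyme that joins E2 and E3 activity and marks ribosomal proteins and unassembled globin chains in reticulocytes. It stood at 60.7 and 62.0 CPM on day 0, 56.0 and 61.8 CPM on day 2 and 98.2 and 96.3 CPM on day 4. The libraries of days 0 and 2 overlapped and both day 4 libraries lay above them. The first step was -0.06 ± 0.10 (adjusted p = 0.63), a value that turned to 0.14 when only total counts were used for scaling, and the second was 0.72 ± 0.10 (adjusted p = 0.00073). By day 4 the transcript was 1.58-fold higher than on day 0 (adjusted p = 0.00013).

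The TRIM genes differed in both level and change. Trim10 (NM_011280, chr17:36869496-36877833, plus strand) encodes a RING protein known to be needed for terminal erythroid differentiation. Its level was 18.8 and 22.0 CPM on day 0, 50.5 and 56.1 CPM on day 2 and 80.1 and 87.9 CPM on day 4, with no overlap between days. The first step was 1.39 ± 0.12 (adjusted p = 4.1e-06), the second 0.66 ± 0.12 (adjusted p = 0.00243, and 0.0642 without day 2 replicate 1), and the rise by day 4 was 4.12-fold (adjusted p = 1.5e-07).

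Trim58 (NM_001039047, chr11:58640465-58652404, plus strand) encodes a ligase that binds the motor protein dynein and promotes the loss of the nucleus. It was the least counted of the 10 genes, with 190 and 270 reads on day 0, 253 and 309 on day 2 and 263 and 340 on day 4. In CPM these were 4.66 and 5.44, then 6.06 and 6.29, then 7.29 and 7.51. The days did not overlap, which 2 libraries per day can show without a change. Neither step passed the test. The first was 0.29 ± 0.15 (adjusted p = 0.12, and 0.0164 with scaling by total counts alone). The second was 0.26 ± 0.15 (adjusted p = 0.21). Over both steps the rise of 0.55 ± 0.15 passed (adjusted p = 0.00741), a 1.46-fold change. Per kb of transcript, Trim58 lay above 25.0% of all tested genes on day 0 and above 28.6% on day 4.

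Within CTLH, the catalytic subunits Maea and Rmnd5a moved in opposite directions. Maea (NM_021500, chr5:33335572-33373294, plus strand), the RING subunit also known as the erythroblast macrophage protein, was at 275 and 210 CPM on day 0, 142 and 153 CPM on day 2 and 147 and 155 CPM on day 4. Both day 0 libraries were above all later ones and differed between themselves by more than any later pair, while days 2 and 4 overlapped. It fell by 0.72 ± 0.14 on the log2 scale by day 2 (adjusted p = 0.00082) and was 0.03 ± 0.14 apart between days 2 and 4 (adjusted p = 0.87). On day 4 it was 1.61-fold lower than on day 0 (adjusted p = 0.00081), and without either day 0 library the change ranged from -0.88 to -0.49 on the log2 scale.

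Rmnd5a (NM_024288, chr6:71388634-71440637, minus strand), the RING partner of Maea, was at 69.4 and 69.5 CPM on day 0, 227 and 221 CPM on day 2 and 232 and 253 CPM on day 4. The day 0 libraries lay far below the others, and those of day 2 and day 4 were close without overlapping. Its first step, 1.69 ± 0.11 (adjusted p = 5.6e-07), had the greatest size among the 10 genes in the main analysis, and its second step of 0.12 ± 0.11 did not pass (adjusted p = 0.43).

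The scaffold subunits rose as well. Wdr26 (NM_145514, chr1:181173226-181220921, minus strand) encodes a WD-repeat protein that links CTLH cores into larger assemblies and is known for its role in erythroid maturation. It was at 112 and 101 CPM on day 0, 171 and 169.6 CPM on day 2 and 215 and 219 CPM on day 4, without overlap. The first step was 0.68 ± 0.11 (adjusted p = 0.00024) and the total rise 2.04-fold (adjusted p = 6.6e-06). The second step, 0.35 ± 0.11 (adjusted p = 0.0278), was the weakest of the 6 calls at that step: the adjusted p was 0.0875 with total counts alone and 0.0987 to 0.189 when any 1 of the day 2 or day 4 libraries was left out.

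Gid8 (NM_029607, chr2:180710122-180721599, plus strand), a scaffold that holds the core subunits together, was at 36.7 and 32.1 CPM on day 0, 57.0 and 55.2 CPM on day 2 and 54.3 and 57.3 CPM on day 4. Day 0 lay below, and days 2 and 4 overlapped. It rose by 0.71 ± 0.11 at the first step (adjusted p = 0.00024) and the second step was -0.01 ± 0.11 (adjusted p = 0.97). The model Gm5206 shares 8.86% of its 32-base words.

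Ranbp10 (NM_145824, chr8:105768308-105833831, minus strand), a scaffold subunit that also binds tubulin and the GTPase Ran, was at 33.1 and 29.9 CPM on day 0, 66.1 and 69.1 CPM on day 2 and 145 and 182 CPM on day 4. No days overlapped, and the spread of the day 4 libraries was wide at 163 ± 26.0 CPM. It rose by 1.10 ± 0.13 (adjusted p = 2.7e-05) and then by 1.27 ± 0.12 (adjusted p = 0.00015), and the second change lay above 98.7% of all tested genes. The rise by day 4 was 5.19-fold (adjusted p = 8.3e-08).

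The timing of the changes was tested as the second step minus the first, in the same fit. This difference passed for 7 of the 10 genes, where 30.0% of all tested genes passed. Rmnd5a (-1.57 ± 0.18, adjusted p = 0.00023), Ube2h (-0.77 ± 0.20, adjusted p = 0.0148), Trim10 (-0.73 ± 0.20, adjusted p = 0.0207), Gid8 (-0.71 ± 0.19, adjusted p = 0.0166) and Ube2l6 (-0.58 ± 0.19, adjusted p = 0.0423) changed more in the first step. Ube2o (0.78 ± 0.18, adjusted p = 0.00863) and Maea (0.75 ± 0.24, adjusted p = 0.0341) had a positive difference, for Ube2o as a rise that came late and for Maea as a fall that ended. For Ranbp10 (0.17 ± 0.22, adjusted p = 0.58), Wdr26 (-0.32 ± 0.18, adjusted p = 0.20) and Trim58 (-0.03, adjusted p = 0.95) a difference was not detected, although with total counts alone that of Wdr26 was -0.60 and passed (adjusted p = 0.0281).

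Day 2 enters both steps, so the difference rests on its 2 libraries more than on any others. The share of all tested genes that passed without a library is not given for this difference. Lost calls in such fits are therefore not read as particular to the members. Without day 2 replicate 1, or without day 2 replicate 2, only 1 of the 10 genes, Rmnd5a, still passed, and without day 4 replicate 1 only 3 did. For Ube2o the adjusted p was then 0.169 or 0.0648 without a day 2 library, and 0.0544 with total counts alone. For Maea it was 0.148 with total counts alone and 0.0662 to 0.287 without any 1 of the later libraries. For Ube2l6 it was 0.0543 with RLE factors, 0.0536 with DESeq2 and 0.148 without day 4 replicate 2. The sign held in all of these.

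**Figure D2:**
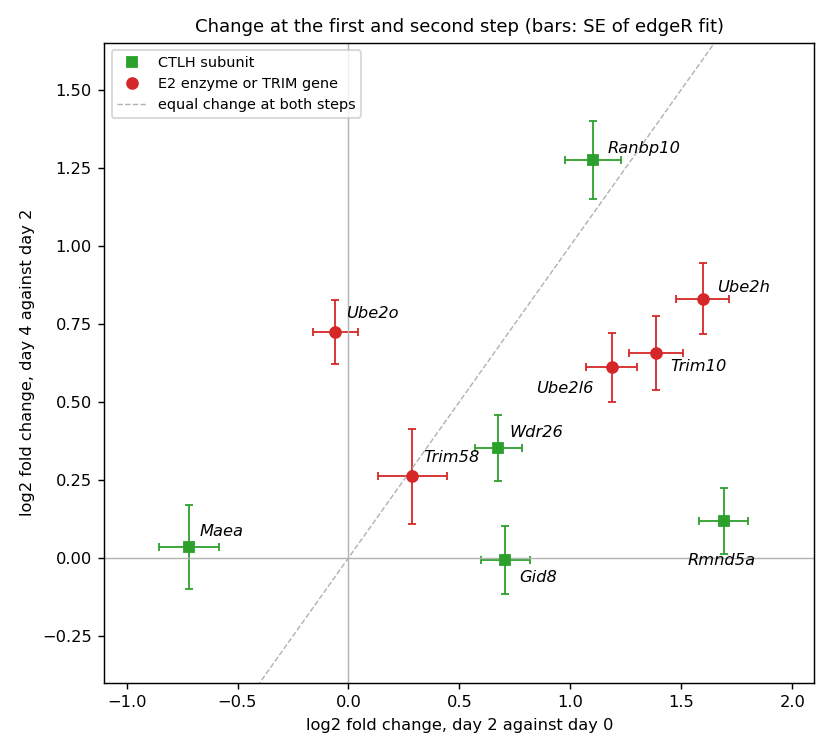
Log2 fold change from day 0 to day 2 (horizontal axis) against that from day 2 to day 4 (vertical axis) for the 10 genes, with bars for the SE of the edgeR fit, CTLH subunits as squares, the others as circles, and a dashed line where both changes are equal. Ube2o (-0.06, 0.72) lies above the line, Ranbp10 (1.10, 1.27) close to it, and Rmnd5a (1.69, 0.12) far to the right of it.

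Per kb of transcript the order of the levels changed over the days. On day 0 Maea stood first at 111 ± 20.8 CPM per kb, followed by Ube2l6 at 18.8 and Gid8 at 16.7, and Trim58 and Ube2h stood last at 2.30 each, with overlapping libraries. Gid8 and Wdr26 (15.1 CPM per kb) also overlapped on that day. By day 4 Maea, at 68.8 ± 2.62 CPM per kb, and Ube2l6, at 65.4 ± 7.84 CPM per kb, overlapped at the top. Rmnd5a (39.4 CPM per kb) had moved from the sixth to the third place and overlapped with Trim10 (37.4 CPM per kb), and Wdr26, Ranbp10 and Gid8 (30.8, 30.8 and 27.0 CPM per kb) formed a run in which each overlapped with the next. Ube2o (18.7), Ube2h (12.3) and Trim58 (3.38 CPM per kb) followed with gaps between them.

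CTLH has further subunits, of which 6 were listed: Ranbp9, Rmnd5b, Armc8, Gid4, Ypel5 and Mkln1. All 6 were called by day 2, 5 as higher and Rmnd5b as lower, where 62.5% of all tested genes were called. Mkln1 lost its call with RLE factors, DESeq2 or only these days in the fit (adjusted p = 0.053 to 0.0567) and in 5 of the 6 fits that left out a library, and 2 were higher and 0 lower without day 2 replicate 1, or 2 higher and 1 lower without day 2 replicate 2. By day 4 the 4 higher calls against day 0 had a log2 fold change of 0.38 to 1.04, and the median of the 6 was 0.38. Of all tested genes, 35.5% were higher and 36.4% lower on day 4 than on day 0. Over the alternative analyses 2 to 4 of the 6 were higher on day 4 and none was lower. Rmnd5b, the paralog of Rmnd5a, was at 48.1 and 51.6 CPM on day 0, 32.2 and 37.6 CPM on day 2 and 42.9 and 45.6 CPM on day 4, a fall of 0.51 on the log2 scale (adjusted p = 0.00276) and then a rise of 0.34 (adjusted p = 0.0462). That second change was no longer called with total counts alone (adjusted p = 0.12) or without any 1 day 2 or day 4 library (adjusted p = 0.0836 to 0.373), and the first not without day 2 replicate 1 (adjusted p = 0.0545). Ranbp9, the paralog of Ranbp10, was at 27.6 and 34.6 CPM, then 41.8 and 42.0 CPM, then 39.4 and 42.4 CPM, with a change of 0.39 by day 4 (adjusted p = 0.0163, and 0.0603 without day 0 replicate 1 or 0.11 without day 4 replicate 2).

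Gid4, the substrate receptor of the complex, was at 35.2 and 30.8 CPM on day 0, 53.7 and 52.9 CPM on day 2 and 45.0 and 40.6 CPM on day 4, highest in both day 2 libraries. Its first step was 0.69 (adjusted p = 0.00037) and its second -0.32 (adjusted p = 0.0575). That fall was called with total counts alone (adjusted p = 0.0286), with no filter beyond 1 count (adjusted p = 0.04999), with only the 2 days compared (adjusted p = 0.0076) and without either day 0 library (adjusted p = 0.008). It remained 0.38 above day 0 (adjusted p = 0.0124, and 0.112 without day 4 replicate 1). Ypel5 rose from 20.9 and 13.5 CPM to 35.2 CPM in both day 4 libraries, a change of 1.04 (adjusted p = 0.0003). Armc8, which joins Gid4 to the core, changed by 0.38 (adjusted p = 0.0153, and 0.0572 to 0.0633 without day 0 replicate 2 or either day 4 library), and Mkln1, a kelch protein, by 0.14 (adjusted p = 0.26). Exons of Ranbp9, Rmnd5b and Mkln1 overlap an antisense gene over 5.55%, 2.16% and 0.342% of their length, and the use of strand in counting is not stated. For the transcripts that represent the 10 genes, no exon overlaps an exon of another gene on either strand in the annotation used.

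The make-up of the CTLH transcripts shifted away from Maea. Summed over 11 subunits the level was 236 and 201 CPM per kb on day 0, 231 and 235 CPM per kb on day 2 and 258 and 274 CPM per kb on day 4. Maea made up 50.4% ± 3.88 of this sum on day 0, 28.8% ± 1.13 on day 2 and 25.9% ± 0.163 on day 4. Rmnd5a went from 5.18% ± 0.584 to 15.6% ± 0.541 and 14.8% ± 0.249, and Ranbp10 from 2.72% ± 0.112 to 5.47% ± 0.0999 and 11.6% ± 1.33. For these 3 genes, and for every other subunit except Ranbp9 and Gid4, both day 0 libraries stood apart from both day 4 libraries. But 2 libraries against 2 cannot reach an exact two-sided permutation p below 0.333, so no test of the shares is given.

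**Figure D3:**
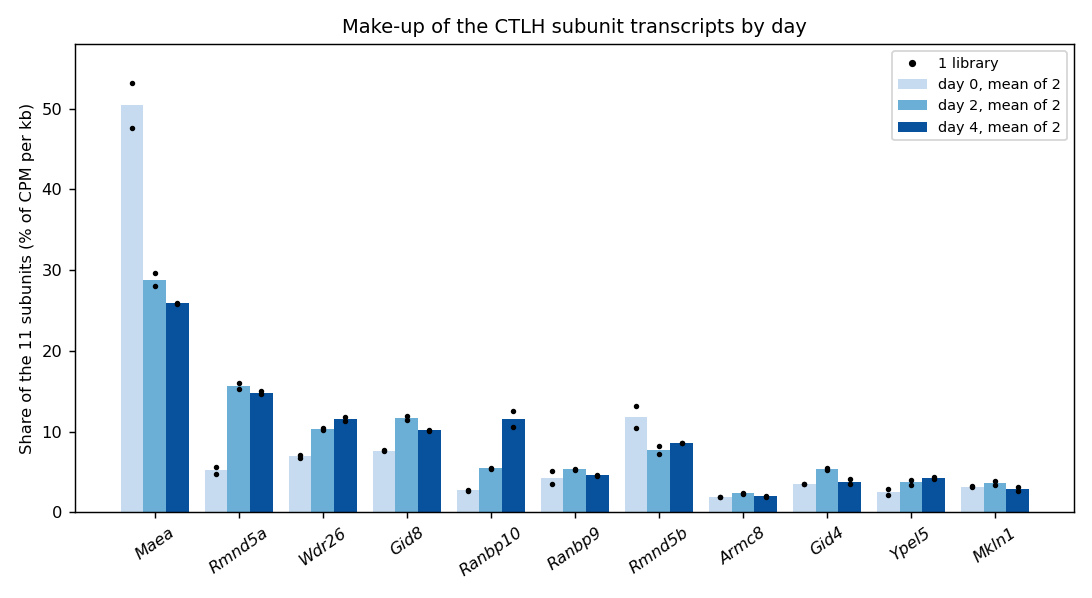
Share of each of 11 CTLH subunits in their summed CPM per kb (vertical axis, percent, from 0), with bars for the mean of 2 libraries on days 0, 2 and 4 and a dot for each library. The share of Maea fell from 50.4% to 25.9%, while those of Rmnd5a, Wdr26, Gid8 and Ranbp10 were larger on day 4 than on day 0.

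Within pairs of relatives the balance turned toward the members. Of the summed CPM per kb of Ranbp10 and Ranbp9, Ranbp10 held 43.2% and 35.4% on day 0, 50.1% and 51.1% on day 2 and 70.0% and 73.1% on day 4. Rmnd5a held 31.3% and 29.8% of the sum with Rmnd5b on day 0, 69.0% and 64.9% on day 2 and 63.1% and 63.7% on day 4. The Ranbp10 shares did not overlap between any of the days, and those of Rmnd5a were highest in the day 2 libraries. The ratio of the E2 transcript Ube2h to the RING transcript Maea, both per kb, was 0.0189 and 0.0232 on day 0, 0.104 and 0.102 on day 2 and 0.175 and 0.183 on day 4.

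Ube2l6 was set beside the other genes of ISG15 conjugation, of which 3 of 5 (2 to 3 over the alternatives) were higher on day 4 than on day 0 and none was lower. That is 60% called, where 71.8% of all tested genes were called, 35.5% as higher and 36.4% as lower. Uba7, the E1 enzyme that hands ISG15 to UBE2L6, went from 46.2 and 43.8 CPM on day 0 to 76.5 and 89.0 CPM on day 2 and 203 and 228 CPM on day 4, a rise of 2.26 ± 0.12 (adjusted p = 6.9e-08). Usp18, the protease that removes ISG15, was higher by 1.28 ± 0.24 (adjusted p = 0.00049) at a level of 3.22 ± 0.791 CPM on day 4, and Trim25 by 0.33 ± 0.10 (adjusted p = 0.0116). Isg15 itself stayed low, at 1.74 and 2.16 CPM on day 0 and 1.69 and 2.59 CPM on day 4 (0.14 ± 0.25, adjusted p = 0.62), and Herc6 changed by 0.12 ± 0.14 (adjusted p = 0.44). Ube2l3, the closest relative of Ube2l6, was at 81.8 and 66.7 CPM on day 0, 48.0 and 46.8 CPM on day 2 and 61.2 and 60.8 CPM on day 4, and was lower on day 2 by 0.65 (adjusted p = 0.00063). Of the summed CPM per kb of both genes, Ube2l6 held 38.0% and 41.9% on day 0, 69.7% and 70.7% on day 2 and 75.1% and 72.0% on day 4. Exons of Ube2l3 overlap an antisense gene over 7.17% of their length, and those of Uba7 a gene on the same strand over 2.41%. Ube2l3, Isg15 and Uba7 share 15.05%, 9.66% and 5.28% of their words with other models.

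Most called genes among the other E2 enzymes were lower on day 4, whereas the 3 E2 members were higher. Of 33 listed, 30 were tested, of which 5 were higher and 15 lower on day 4 than on day 0, with a median log2 fold change of -0.33. That is 66.7% called, where 71.8% of all tested genes were called, 35.5% as higher and 36.4% as lower. Over the alternative analyses 3 to 6 were higher and 13 to 16 lower. Ube2r2 (1.04) and Ube2d1 (0.57) had the largest rises, and Ube2s (-1.18), which extends chains for the anaphase-promoting complex, and Cdc34 (-1.01), which serves cullin ligases, the largest falls among the expressed genes. Of 7 E1 enzymes 1, Uba7, was higher and 3 were lower (2 to 4 over the alternatives), among them Uba2 (-1.37) and Sae1 (-1.29), which form the E1 of SUMO. A difference in direction between the members and these lists was not tested.

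The TRIM family outside Trim10 and Trim58 held 64 genes, of which 38 were tested, 21 were higher on day 4 than on day 0 and 6 were lower, with a median of 0.48. That is 71.1% called, close to the 71.8% of all tested genes, of which 35.5% were higher and 36.4% lower. Over the alternatives 19 to 24 were higher, the 24 out of 51 tested without the filter, and 5 to 7 were lower. Trim10, at 2.04, lay just below the largest of these, Trim21 at 2.08, an antibody receptor, and above Trim7 at 1.70. Trim16 (-1.99) and Trim46 (-1.51) had the largest falls among the expressed genes. Trim58, at 0.55, lay close to the median of the family.

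**Figure D4:**
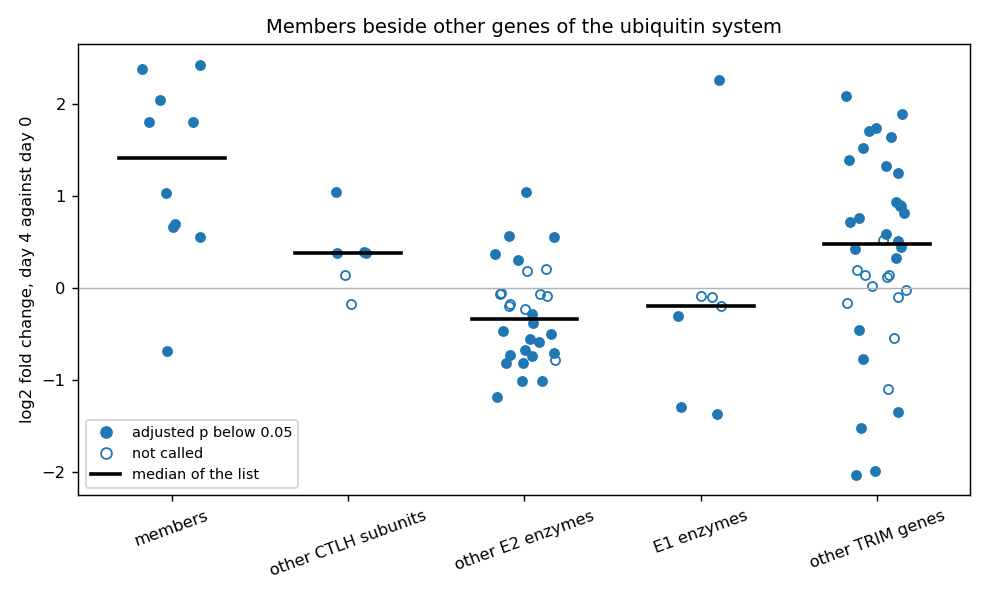
Log2 fold change from day 0 to day 4 (vertical axis) of the 10 genes and of the tested genes of 4 related lists (6 other CTLH subunits, 30 other E2 enzymes, 7 E1 enzymes and 38 other TRIM genes), 1 point per gene, filled where the adjusted p was below 0.05, with a bar at the median. The medians were 1.41, 0.38, -0.33, -0.19 and 0.48, and Maea is the 1 member below 0.

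The 10 genes did not share 1 profile. The likeness of 2 genes was measured as the root mean square distance between their log2 CPM values over the 6 libraries, each centred on its own mean. Within the set, Wdr26 and Gid8 were closest (0.164) and Ube2h and Maea farthest apart (1.31). Among 10453 other genes with a mean log2 CPM of at least 1, those closest to Ube2h were Arrdc3 (0.0223), Dennd4c (0.0540) and Aplp1 (0.0666). Closest to Ranbp10 were Asap2 (0.0773), Uba7 (0.115) and Slc37a2 (0.118), and closest to Maea were Dcaf15 (0.0273), Oaf (0.0425) and Cox10 (0.0447). These distances describe 6 libraries on 3 days, and many genes with a like course lie near any 1 profile.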

How the data were processed

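Libraries were prepared with a stranded TruSeq mRNA kit. The authors removed adapters (cutadapt) and mapped the reads to mm10 (GRCm38) by TopHat. The deposited files, 1 per library, hold raw counts for each RefSeq transcript, from which CPM was computed here. The submitters' processing notes also name HTSeq and DESeq2. The counting settings, use of strand and annotation release are not given in the sources used here. Reads on no feature were 50.5 to 58.4% of their sum with the counts on transcripts and were left out. Reads on shared or overlapping sequence are listed at 0.

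Of 32654 transcripts, 32199 received a symbol from a RefSeq table of GRCm38, 187 from GENCODE and 268 none. Lengths for CPM per kb came from GENCODE. edgeR 4.0.16 (R 4.3.3) was used with TMM factors of 0.921 to 1.07, filterByExpr by day (18351 transcripts kept), and a mean per day in glmQLFit and glmQLFTest. The alternatives were RLE factors, total counts alone, libraries without globin transcripts, DESeq2 1.42.0, no filter beyond 1 count, a block for the replicate number, a fit of only the days in question, a minimum change of 1 on the log2 scale, and each library left out. The fits were also run on simulated counts in which few transcripts changed, unlike these data, and the outcome is not reported here.

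Named were every member, every other CTLH subunit, Uba7, Isg15 and Ube2l3, the closest profiles of 3 members, and of each other list the 2 largest rises and falls by day 4 among called genes with a mean log2 CPM of at least 1. All genes of the ISG15 and substrate lists were named after their values were seen, and some genes are not reported here. The members and lists were chosen with earlier results of these data known.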

Additional observations from a re-analysis of the deposited data

How the results depend on the processing

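Of 514 alternative values of single members, 468 kept direction and side of the threshold, 29 fell below it, 2 rose above it and 15 changed sign, all of the last among changes that did not pass. When a change of 1 or more on the log2 scale was also required, the members called were 5 on day 2 against day 0, 1 on day 4 against day 2, 6 on day 4 against day 0 and 1 for the second step against the first, all genes called were 2867, 736 and 4411 in the first 3 of these, and genes of the other lists 18, 2 and 32 (main analysis 94, 37 and 104 of 151), since fewer genes can pass. With only the 2 days compared the other lists had 62 calls on day 4 against day 2.

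Without 1 library, a fit that assumes the lone sample varies like the others, members called ranged from 8 to 8, 3 to 6, 10 to 10 and 1 to 7 in the 4 comparisons, all genes from 5756 to 8227, 937 to 5442 and 7731 to 9250, and the other lists from 67 to 96, 6 to 62 and 83 to 108. The low ends for day 4 against day 2 (3 members, 937 genes, 6 of the lists) came without day 2 replicate 1. The cause was not tested.

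Signs changed for Ube2o on day 2 against day 0 (0.14 with total counts, -0.13 to 0.011 without 1 library), for Maea (-0.050 with total counts, -0.021 to 0.086) and Gid8 (0.0014 with RLE factors and with DESeq2, -0.049 to 0.027) on day 4 against day 2, and for the second step against the first in Trim58 (0.0105 with RLE factors, 0.0103 with DESeq2, -0.14 to 0.074) and Ranbp10 (-0.11 with total counts, -0.0042 to 0.32). Total counts alone moved the median of all genes by 0.21, -0.09 and 0.10, and the calls to 5001 higher and 2881 lower, 1228 and 2532, and 4916 and 4006, from 3841 and 3902, 1739 and 2010, and 4393 and 4501.

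The replicate numbers did not pair the libraries (correlations of deviations 0.032, 0.045 and 0.079). With the replicate block 8, 6, 10 and 7 members were called, and 7697, 3689 and 8874 genes, and the fall of Gid4 from day 2 to day 4 passed (adjusted p = 0.0493). The 2 libraries per day limit the precision, and Trim58, with 190 to 340 reads, had the largest SE of the members.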

Other observations

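Further genes of the ubiquitin system were counted in the same way, and are given as values. Of 44 tested USP deubiquitinases, which take ubiquitin off substrates, 21 were higher (17 to 22 over the alternative analyses) and 11 lower (9 to 13) on day 4 than on day 0, with a median change of 0.14 on the log2 scale. That is 72.7% called, close to the 71.8% of all tested genes, of which 35.5% were higher and 36.4% lower. Usp20 (1.51) and Usp49 (1.42) had the largest rises and Usp1 (-1.83), which acts in DNA repair, and Usp44 (-1.53) the largest falls among the expressed genes. Of 8 cullins, the scaffolds of the largest class of RING ligases, Cul4a was higher (0.99) and 4 were lower, among them Cul4b (-0.61) and Cul2 (-0.38). With scaling by total counts alone 1 cullin was higher and 1 lower, and without either day 4 library 1 was higher and 2 were lower.

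Of 9 tested subunits of cytoplasmic dynein, the motor that TRIM58 binds, 5 were higher (4 to 5 over the alternatives) and 1 lower (0 to 3) on day 4. That is 66.7% called, where 71.8% of all tested genes were called, 35.5% as higher and 36.4% as lower. Dynlt3 (1.37) and Dynlt1a (1.09) rose most and Dynll1 was lower (-0.43).

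Of 3 genes whose proteins are known substrates of CTLH, Hbp1, a transcriptional repressor, rose from 9.06 ± 0.329 CPM on day 0 to 42.5 ± 3.02 CPM on day 4 (2.23 ± 0.12, edgeR adjusted p = 9.3e-08). Zmynd19 fell from 87.0 ± 7.54 CPM to 31.7 ± 3.07 CPM (-1.46 ± 0.12, adjusted p = 9.5e-07), and Hmgcs1, an enzyme of sterol synthesis, changed by 0.36 ± 0.11 (adjusted p = 0.0154, and 0.0677 or 0.0792 without day 4 replicate 1 or 2). These are transcript levels, and protein was not measured here.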
